A study of Mus musculus with 18 samples.

Results

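Of 18193 genes measured in mouse naive CD4 T cells, 157 had lower RNA after interleukin 6 (IL-6) when STAT3 was present and not when it was missing, by the limits below. They were chosen on the deposited signals as log2(signal + 32), with each gene read from the probe set (the group of array probes for a transcript) that had the highest mean. A gene had to have a mean of at least 8 in wild type (WT) cells in medium, a WT IL-6 minus medium difference of at most -0.8 with all 3 IL-6 arrays below all 3 medium arrays, and a difference above -0.3 in STAT3-deficient cells. Of 8013 genes at that level, 230 met the WT conditions and 179 of those met the STAT3-deficient one. Leaving out 22 by name (symbols starting Slc, Klf, Itg, Trim, Pdlim or Cd with a digit, and Gata3, Epas1, Cxcr4, Klrd1, Bbc3 and Dapl1) gave the 157. The name describes this rule and does not say how STAT3 acts on any of these genes.

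The cells came from lymph nodes and spleen of C57BL/6J mice, sorted as CD4 T cells that were CD44-, CD62L+ and CD25-, and their total RNA was put on Affymetrix whole-genome mouse arrays. WT cells were compared with STAT3KO cells, in which Cd4-Cre, active in T cells from the thymus on, recombines a floxed Stat3 allele (STAT3<tm1Dlv>). Neither the age of the mice nor whether the WT mice carried the Cre is known here. Each genotype was cultured for 3 h in medium, in 20 ng/ml IL-6 or in 20 ng/ml of the related cytokine interleukin 27 (IL-27), which gave 6 groups of 3 arrays, described as biological triplicates. In bulk RNA, fewer cells of a type and less RNA per cell cannot be told apart.

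IL-6 binds its receptor, which pairs with the signalling chain gp130, and Janus kinases on that chain phosphorylate STAT3. Phosphorylated STAT3 enters the nucleus and binds DNA, where it is best known for raising transcription, for example of its own inhibitor Socs3. IL-27 uses gp130 with a second chain, and also activates STAT3. Naive CD4 T cells circulate in a resting state and keep high levels of T cell receptor signalling proteins and of receptors for homing.

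Stat3 was read first, as a check of the genotype. Its strongest probe set gave 11.54, 11.34 and 11.18 on the WT medium arrays and 10.19, 10.36 and 10.18 on the STAT3-deficient ones (normalised log2 signal, the scale of all values below unless stated). That is a difference of -1.11 ± 0.12 (standard error, SE, of the model, n = 3 arrays a group, as everywhere below). With IL-6 and IL-27 the same probe set lay at 11.13 to 11.32 and 11.72 to 12.18 in STAT3-deficient cells, and at 13.18 to 13.34 and 12.83 to 13.07 in WT cells, so STAT3-deficient cells with cytokine reached the WT medium level. Other Stat3 probe sets differed in medium by -0.92, 0.12 and 0.80, and which of them lie in the deleted exons is not known here. All 8 measured naive CD4 T cell markers lay above the array median on every array. The median signal of an array was 104.4 to 126.8 units in WT and 131.5 to 190.3 units in STAT3-deficient samples, so genotype and signal distribution cannot be told apart. Summed signal of 13 B cell markers was 3473 to 6609 units in WT and 7034 to 10210 units in STAT3-deficient samples, and that of 15 myeloid markers was 841.7 to 1418 against 3850 to 8694 units. Cd79a and Cd79b, which define B cells, reached 452.8 and 454.9 units at most.

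Cells with and without STAT3 answered IL-6 very differently across these genes, as the rule requires. In WT cells the median change with IL-6 was -0.96 on the normalised scale, against -0.02 for all 11971 genes tested. In STAT3-deficient cells it was -0.12, against -0.03. The sign of the latter values depended on the scaling: with median centring the STAT3-deficient median was 0.09, against 0.13 for all genes, and 42 of the 157 were below 0 in place of 104. The limma model called 143 of the 157 lower in WT cells (adjusted p under 0.05; 4.66% of all genes tested were called lower) and 1, Dgkz, in STAT3-deficient cells (0.159%). All these arrays were used to choose the genes, so the counts describe the choice. Of the 8 naive CD4 T cell markers measured, 6 were called lower in WT cells with IL-6. Among the 8, Cd4 and Cd28 met the limits of the rule and were left out only by name, so the rule set their part. Summed signal of the 8 was 126100 to 136700 units in WT medium and 91300 to 96260 units with IL-6. In STAT3-deficient cells it was 102600 to 114000 and 94460 to 114600 units. The part of these levels in the result was not tested. Normalisation moved some genes over the limits of the rule: 134 still had a WT change of at most -0.8, 143 a STAT3-deficient change above -0.3, and 121 both. A small response without STAT3 was not excluded by the measurements. The 95% interval of the STAT3-deficient change reached below -0.5 for 68 genes and below -0.8 for 7.

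**Figure D1:**
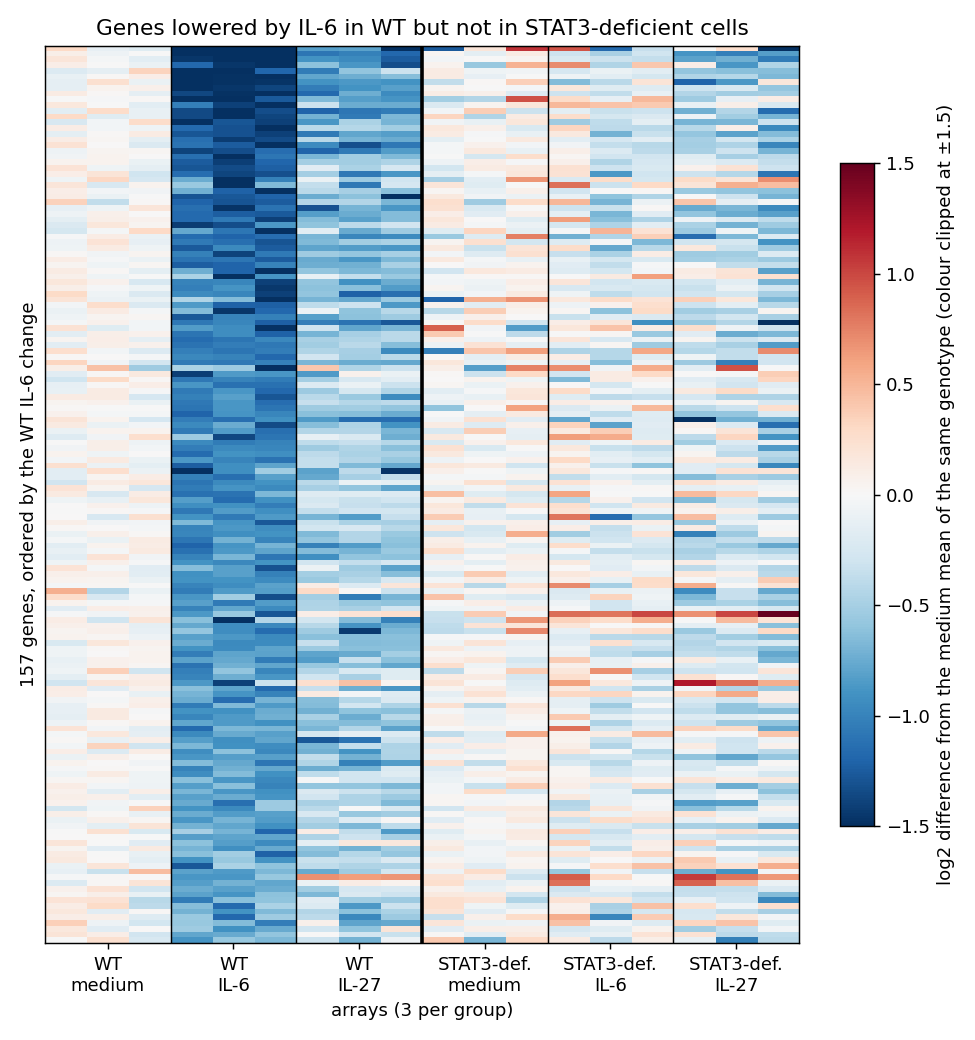
Each row is one of the 157 genes and each column one of the 18 arrays; colour is the log2 difference from the mean of the 3 medium arrays of the same genotype, clipped at ±1.5. The WT IL-6 columns are blue throughout (median change -0.96), the WT IL-27 columns paler (median -0.54), and the STAT3-deficient IL-6 columns mostly near white (median -0.12).

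The genes nearest the limits differed little from those just outside. On the deposited scale the WT change of Arsb was -0.81, inside the limit, and that of Prkag2 was -0.7989, outside it. For the STAT3-deficient change, Tmem109 at -0.2988 was inside and Hsd11b1 at -0.3005 outside. For the level in WT medium, Ifi27l2b at 8.02 was inside and Igsf8 at 7.97 outside.

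The 10 genes with the lowest WT IL-6 change on the normalised scale belong to several kinds of proteins. Adgre5 encodes CD97, an adhesion receptor coupled to G proteins. It was at 12.74, 12.57 and 12.64 in WT medium and at 10.93, 10.78 and 10.74 with IL-6. In STAT3-deficient cells it was at 12.76, 12.59 and 12.85 in medium and at 12.43, 12.24 and 12.43 with IL-6. The WT arrays lay far apart, by -1.83 ± 0.09 or 3.55-fold, and the STAT3-deficient ones by -0.37 ± 0.09, also without overlap. Crip1, a small LIM domain protein, went from 13.44, 13.23 and 13.10 to 11.81, 11.50 and 11.35 in WT cells (-1.71 ± 0.12). In STAT3-deficient cells its 3 IL-6 arrays, 13.10, 13.01 and 12.97, lay just under the medium arrays at 13.29, 13.33 and 13.37 (-0.30 ± 0.12). Neither STAT3-deficient change was called (adjusted p = 0.0509 for Adgre5 and 0.463 for Crip1, limma), and on the deposited scale they were -0.26 and -0.16.

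2 sialyltransferases, which add sialic acid to glycolipids and glycoproteins, were among the 10. St8sia6 was at 13.80, 13.93 and 14.01 in WT medium and at 12.39, 12.43 and 12.41 with IL-6, a change of -1.505 ± 0.08, against -0.17 ± 0.08 without STAT3. St8sia1 was at 11.52, 11.59 and 12.05 in WT medium and at 9.85, 10.16 and 10.53 with IL-6 (-1.54 ± 0.17), against -0.17 ± 0.17. The IL-6 arrays of both genes lay well below the WT medium arrays. Dusp2, a phosphatase that inactivates MAP kinases in the nucleus, went from 11.89, 12.27 and 11.92 to 10.52, 10.54 and 10.55 in WT cells (-1.49 ± 0.26), with widely spread STAT3-deficient arrays (11.57 to 12.42 with IL-6). Rundc3b and Sidt1 changed by -1.48 ± 0.11 and -1.47 ± 0.13 in WT cells and by -0.07 ± 0.11 and -0.26 ± 0.13 without STAT3.

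The other 3 of the 10 were weaker or noisier. Kcnip2, a protein that binds potassium channels, had the lowest value, -2.32 ± 0.62, but its 3 STAT3-deficient medium arrays lay at 6.73, 8.17 and 9.07, so that its STAT3-deficient change of -0.19 ± 0.62 is hardly determined. Kif23, a kinesin of cell division, changed by -1.60 ± 0.34 in WT and by 0.22 ± 0.34 in STAT3-deficient cells. Fcgr3, an Fc receptor of myeloid and NK cells, was at 8.67, 8.65 and 8.69 in WT medium and at 7.06, 7.16 and 7.41 with IL-6 (-1.46 ± 0.30). Its STAT3-deficient medium arrays, 6.97, 7.03 and 8.43, were in 2 of 3 cases as low as the WT IL-6 arrays, and myeloid marker signal was higher in those samples; its part in the values of Fcgr3 was not tested.

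**Figure D2:**
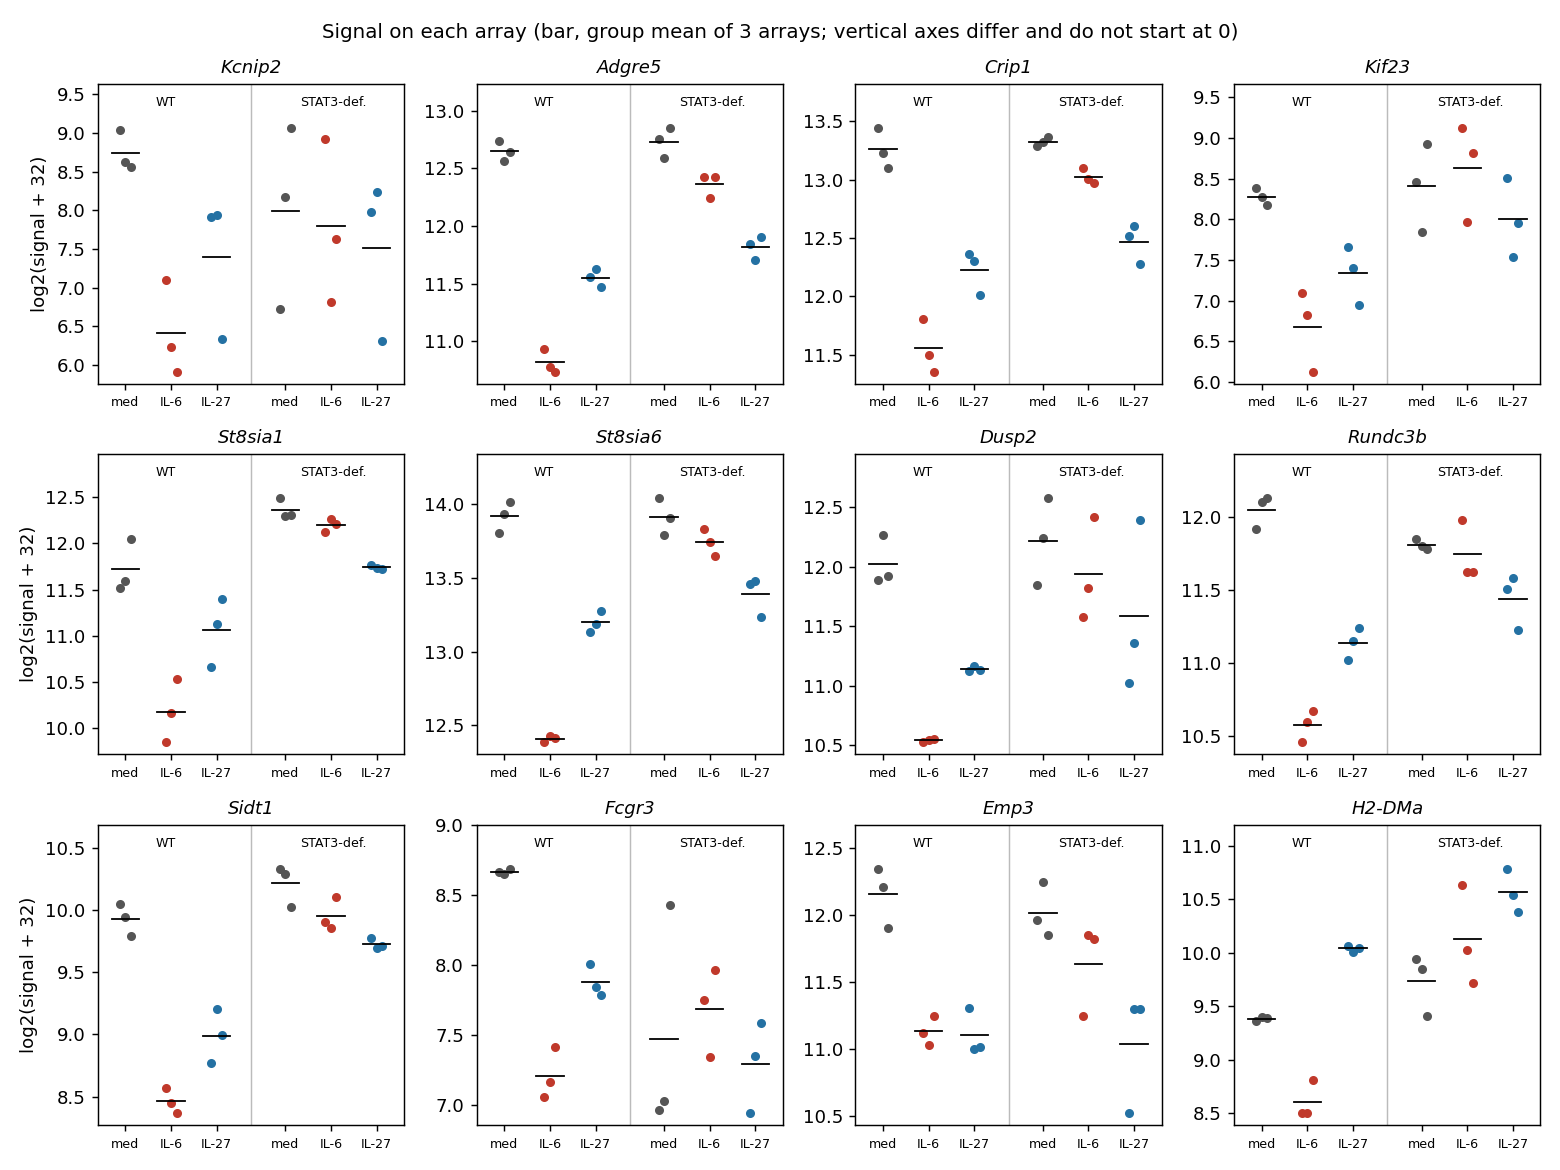
Signal on each of the 18 arrays, as normalised log2(signal + 32), for the 10 genes with the lowest WT IL-6 change and for Emp3 and H2-DMa; points are arrays, bars group means. Adgre5 in WT cells lies between 10.74 and 10.93 with IL-6 and between 12.57 and 12.74 in medium, while H2-DMa lies above its WT medium level with IL-27.

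Promoters were read for 111 of the 157 genes, since the genes changed together with a DNA-binding factor, STAT3, present. The sequences are those of RefSeq for mouse build GRCm38.p6, from 250 bases before to 50 after each start. The palindrome TTCNNNGAA, the core of the sites that STAT proteins bind, was searched for (it reads the same on both strands). It was in 12 of 161 promoters (7.45%), against 6.97% of 12269 promoters of the genes tested; counted by gene the shares were 8.11% and 8.39%. The genes with a match were Ptpn22, Fam53b, Dzip1, Fam111a, Nsg2, Dbp, Rasgrp1, Pdcd4 and Mapk14. The first 4 of them by WT IL-6 change are printed 5′ to 3′, with the match in capitals, to show where it lies.
Ptpn22, chr3:103860027-103860326, plus strand, match from -232: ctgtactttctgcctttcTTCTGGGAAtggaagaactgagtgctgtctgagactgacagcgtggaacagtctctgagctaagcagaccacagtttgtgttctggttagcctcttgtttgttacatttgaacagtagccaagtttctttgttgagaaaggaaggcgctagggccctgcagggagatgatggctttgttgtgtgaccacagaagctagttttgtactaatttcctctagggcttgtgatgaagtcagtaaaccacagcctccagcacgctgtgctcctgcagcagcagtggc
Fam53b, chr7:132776867-132777166, minus strand, match from -20: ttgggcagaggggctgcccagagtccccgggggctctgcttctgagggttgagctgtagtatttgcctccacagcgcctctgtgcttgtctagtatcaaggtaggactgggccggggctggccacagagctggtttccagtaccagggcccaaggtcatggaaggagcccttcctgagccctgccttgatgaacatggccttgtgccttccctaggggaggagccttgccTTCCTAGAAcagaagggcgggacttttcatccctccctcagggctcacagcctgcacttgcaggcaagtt
Dzip1, chr14:118925421-118925720, minus strand, match from -231: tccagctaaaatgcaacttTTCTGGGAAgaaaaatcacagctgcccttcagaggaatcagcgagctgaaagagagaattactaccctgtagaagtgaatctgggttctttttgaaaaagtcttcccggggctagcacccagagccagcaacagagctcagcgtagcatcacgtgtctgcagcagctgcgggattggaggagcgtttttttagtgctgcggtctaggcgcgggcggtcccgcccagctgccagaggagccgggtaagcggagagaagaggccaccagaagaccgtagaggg
Fam111a, chr19:12573260-12573559, plus strand, match from -63: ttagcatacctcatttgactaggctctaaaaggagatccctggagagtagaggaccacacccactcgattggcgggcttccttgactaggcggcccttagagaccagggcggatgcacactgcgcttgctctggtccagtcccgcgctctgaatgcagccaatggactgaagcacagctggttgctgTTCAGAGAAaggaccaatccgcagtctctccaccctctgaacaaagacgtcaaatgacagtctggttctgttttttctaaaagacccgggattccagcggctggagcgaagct

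Ptpn22 and Dzip1 share the same match letters near the far end of the window, Fam53b has its match close to the start, and these 4 genes changed by -1.40, -1.25, -1.0004 and -0.96 with IL-6 in WT cells (Ptpn22, Fam53b, Dzip1 and Fam111a in turn). Other letters were searched on both strands. The ETS core can overlap the STAT core in the letters GAA. The ETS core CCGGAAGT was in 2.48% of the promoters of these genes against 7.78% of those of all genes tested, and the FOXO site GTAAACA in 1.86% against 2.87%. The GC box GGGCGG was in 65.2% against 59.8% and the E box CACGTG in 9.94% against 9.63%. Median GC content was 61.0% against 60.3%. These are shares of windows with given letters and do not show binding.

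The genes were grouped by what their proteins do, for 94 of the 157, after their values were seen. The T cell receptor group held 18 genes for signalling, calcium and potassium channels. In WT cells with IL-6 its changes ran from -1.40 to -0.77, with a median of -0.96, and without STAT3 from -0.35 to 0.22, with a median of -0.18. Ptpn22, a phosphatase that holds back Src family kinases, was at 12.68, 12.88 and 13.20 in WT medium and at 11.39, 11.64 and 11.53 with IL-6. Sit1, a transmembrane adaptor that inhibits signalling, was at 10.0003, 10.10 and 10.06 against 8.93, 8.41 and 8.97, and Rasgrp2, an exchange factor for Rap1, at 11.76, 11.63 and 11.55 against 10.53, 10.56 and 10.40. None of the 3 overlapped between WT medium and IL-6. The group held positive components, such as the adaptor Grap2 (-1.04 ± 0.15) and the Ras exchange factor Rasgrp1 (-0.86 ± 0.17), and inhibitors, such as Ubash3a (-0.94 ± 0.11) and Dgkz, which removes diacylglycerol (-0.88 ± 0.08). In the wider list of T cell receptor signalling genes, 57 of which were measured and 10 of which are among the 157, the model called 26 lower and 4 higher in WT cells with IL-6, and 3 lower and 1 higher in STAT3-deficient cells. Of all genes tested, 4.66% were called lower and 3.67% higher in WT cells, and 0.159% and 1.68% in STAT3-deficient cells. The list's medians were -0.37 and -0.08. The 10 genes among the 157 were chosen on these arrays, so their part in the counts and medians is set by the rule. Counts without them were not made.

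Genes for G protein and cyclic nucleotide signalling numbered 7, with a median WT IL-6 change of -1.15. Beside Adgre5 they included Ramp1, a partner chain of the receptor for the neuropeptide CGRP (-1.42 ± 0.18), and Pde2a, which degrades cyclic nucleotides (-1.30 ± 0.15). Without STAT3 the 7 lay between -0.37 and -0.15 with quantile normalisation, values whose sign depends on the scaling as described above. The 16 genes for cytoskeleton, adhesion and small GTPases had a median of -1.05 in WT cells and of -0.13 without STAT3. They included Prex1, an exchange factor for Rac (-1.29 ± 0.14), and Stk10, a kinase of lymphocyte shape and adhesion (-1.28 ± 0.23). The 8 genes for sialic acid, glycans and lysosomes had a median of -1.12.

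The 18 genes of mitochondrial, lipid and redox metabolism had a median WT IL-6 change of -0.92 and a median of -0.13 without STAT3. They included the alcohol dehydrogenase Adh1 (-1.33 ± 0.16), the mitochondrial isocitrate dehydrogenase Idh2 (-0.91 ± 0.23), and Pdk1, a kinase that inhibits pyruvate dehydrogenase (-0.77 ± 0.22). The 9 genes for transcription factors and chromatin proteins had a median of -0.86 and included Foxo3 (-0.76 ± 0.24) and Id3 (-1.05 ± 0.37), known for keeping T cells quiescent and naive. The other Foxo3 probe sets were at -0.02 and 0.08, so the probe sets of this gene disagree. Of the MAP kinase pathway there were 4, Dusp2, Dusp10, Map3k4 and the p38 kinase Mapk14, and of cell death and tumour suppressor genes 5, among them Pdcd4, an inhibitor of translation (-0.84 ± 0.08). None of 43 measured cytokine receptor, JAK and STAT genes, and none of 22 reported STAT3 targets, was among the 157. The 157 are a small share of the 11971 genes tested, so lists of this size would often hold none. Genes raised by IL-6 could not meet the rule either, and nothing is read from these zeros. Of those 22, 15 were called higher in WT cells with IL-6 (limma; 3.67% of all genes were called higher; median 1.08), Socs3 by 4.18 ± 0.15.

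5 genes are best known from B cells and antigen-presenting cells: Ighm, Fcgr3, H2-DMa, H2-Ob and Ncf4. Ighm was at 12.25, 12.40 and 12.40 in WT medium, at 11.29, 11.51 and 11.22 with IL-6, and between 12.35 and 12.96 in STAT3-deficient medium and IL-6 samples. The brightest of its other probe sets, at 11.57 in WT medium, changed by -1.14 in WT cells with IL-6 and by 0.095 without STAT3. The rest, at 6.42 to 8.10 in WT medium, changed by -0.49 to 0.24 in WT cells. The weaker probe sets thus do not follow the chosen one. The summed B cell signal, much of it Ighm, was 6101 to 6609 units in WT medium and 3473 to 4130 units with IL-6. Of 9 B cell markers tested, Ighm was the one called in WT cells with IL-6, and their median change was 0.07. More widely, 88 of the 157 genes had 149 further probe sets. In WT cells with IL-6, 139 of these were below 0, 10 were above it, and the median was -0.62. The limit of -0.8 was met by 52. In STAT3-deficient cells with IL-6 most of the 149 lay above -0.3 on the normalised scale, and some did not. The further probe set of Orai2 was at -0.61, and those of Ttc28 were at -0.45, -0.49 and 0.03. For these 2 genes the probe sets thus disagree about the STAT3-deficient limit. All 149 were read on the arrays that chose the genes, and the share of all probe sets below 0 was not counted.

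The IL-27 arrays were not used to choose the genes, but the medium arrays they are compared with were. In WT cells with IL-27, 65 of the 157 genes were called lower and 0 higher (limma, adjusted over all 11971 genes; 2% of all genes were called lower and 2.71% higher; 1 member was higher at an unadjusted p under 0.05). The median change was -0.54, against -0.04 for all genes, and 151 of the 157 were below 0. In 124 genes (79%) all 3 WT IL-27 arrays lay below all 3 medium arrays, against 13.4% of all genes. The change was smaller in size than that with IL-6 in 154 of the 157. The rule asked for a low WT IL-6 value, so that count is largely set by the choice of genes. All 3 IL-6 arrays lay below all 3 IL-27 arrays in 110 genes (70.1%, against 9.28% of all genes), a comparison that uses the IL-6 arrays of the rule. These counts use the same medium arrays that chose the genes, and the part of those arrays in the counts was not tested.

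In STAT3-deficient cells with IL-27 the normalised data called 33 of the 157 lower and 3 higher, where 1.7% and 3.27% of all genes were called. The median change was -0.30, and 128 genes were below 0. These calls depended on the scaling of the arrays. With the deposited scaling 20 were lower and 2 higher, and with median centring, which moved the median of all genes to 0.12, 0 were lower and 3 higher by limma (11 lower at an unadjusted p under 0.05), with a median of -0.08 for the 157. Relative to the median of all genes, the 157 lay at -0.27, -0.20 and -0.20 with the 3 scalings. In WT cells the counts were 65, 71 and 46 lower and the relative medians -0.50, -0.54 and -0.54. Leaving out 1 STAT3-deficient medium array changed the 36 calls to 20 (replicate 1) or 23 (replicate 2), and leaving out 1 array changed the 65 WT calls to 43 (medium replicate 2) or 41 (IL-27 replicate 2).

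**Figure D3:**
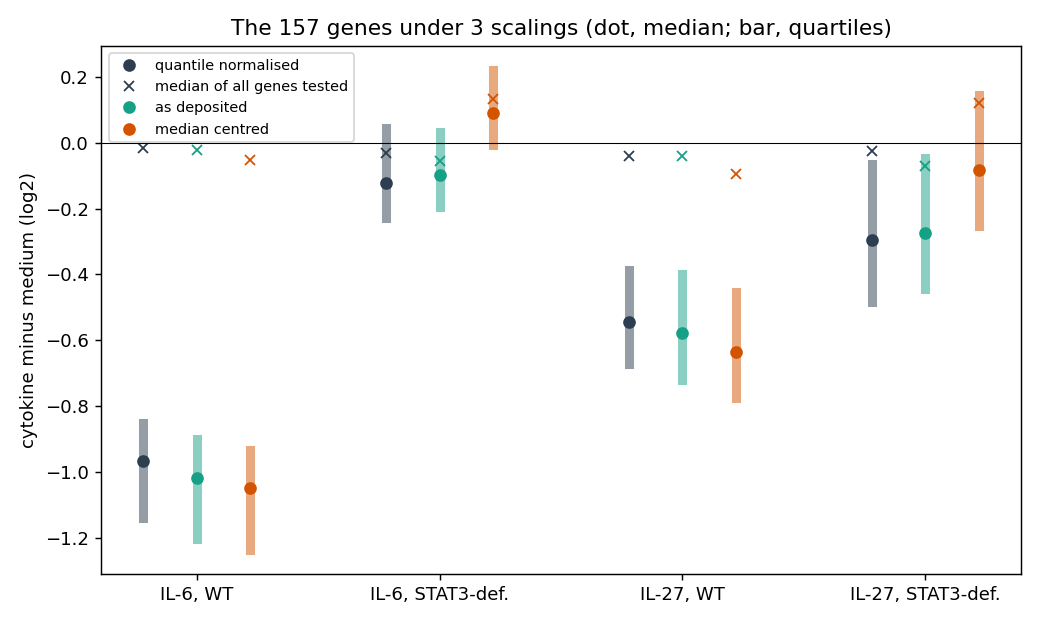
Median (dot) and quartiles (bar) of the change of the 157 genes with each cytokine, in each genotype, under 3 scalings of the arrays, with the median of all 11971 genes as a cross; the vertical axis is the log2 change from medium. The WT IL-27 medians lie between -0.63 and -0.54, while the STAT3-deficient IL-27 medians lie between -0.30 and -0.08.

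The genes with the lowest IL-27 values were partly the same in both genotypes. Emp3, an epithelial membrane protein, was at 12.34, 12.21 and 11.90 in WT medium and 11.31, 10.999 and 11.01 with IL-27. In STAT3-deficient cells it was at 11.96, 12.24 and 11.85 against 10.52, 11.29 and 11.30. The fall was -1.05 ± 0.19 (adjusted p = 0.0019, limma) and -0.98 ± 0.19 (adjusted p = 0.00348, limma; 0.103 with median centring), with no overlap in either genotype. Adgre5 with IL-27 was at 11.56, 11.63 and 11.47 in WT and at 11.84, 11.70 and 11.90 in STAT3-deficient cells. It fell by 1.09 ± 0.09 (adjusted p = 1.41e-07, limma) and by 0.91 ± 0.09 (adjusted p = 1.5e-06, limma; 0.0531 with median centring). CD97 RNA was thus 2.13-fold lower with IL-27 in WT cells and 1.89-fold lower in STAT3-deficient ones.

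Crip1, Septin9, Ramp1 and Pde2a were also called lower in both genotypes. Crip1 fell by 1.03 ± 0.12 in WT and 0.86 ± 0.12 in STAT3-deficient cells, and Septin9, a filament-forming GTPase, by 0.95 ± 0.17 and 0.80 ± 0.17. Ramp1 fell by 1.11 ± 0.18 and 0.77 ± 0.18, but both calls were lost with the mean of its probe sets (adjusted p = 0.302 and 0.309, limma). With median centring none of the STAT3-deficient values of these 4 was called. Golm1, a Golgi membrane protein, fell by 1.14 ± 0.29 in WT cells (adjusted p = 0.029, limma) and was at -0.92 ± 0.29 in STAT3-deficient cells (adjusted p = 0.0895, limma). Kcnip2 had the lowest WT value, -1.34 ± 0.62, which was not called (adjusted p = 0.318, limma). In all, 30 genes were called lower with IL-27 in both genotypes and 35 in WT alone. In STAT3-deficient cells alone there were 3 (Ephx1, Stx1a and Trbv13-2), and 89 were called lower in neither. Of all genes, 2% were called lower in WT and 1.7% in STAT3-deficient cells, and the share called in both was not counted. With median centring 0 of the 157 were called lower in STAT3-deficient cells, so the 30 and the 3 rest on the scaling.

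By role, with IL-27 in WT and STAT3-deficient cells in turn, 8 and 7 of the 18 T cell receptor group genes were called lower, 6 and 4 of the 7 G protein genes, and 6 and 3 of the 8 glycan and lysosomal genes. Of the 18 metabolic genes 8 and 4 were called lower, of the 16 cytoskeletal genes 8 and 5, and of the 9 transcription and chromatin genes 3 and 0 (0 also at an unadjusted p under 0.05). None of the 4 MAP kinase pathway genes (3 and 2 at an unadjusted p under 0.05) and none of the 5 genes known from B cells and antigen-presenting cells (3 and 1) was called lower by limma. Of the 5 cell death and tumour suppressor genes 4 and 1 were called lower, and of the 4 genes for cell division and DNA repair 2 and 1. Of all genes tested, 2% and 1.7% were called lower. The 63 genes without a role had 20 and 8 called lower, with medians of -0.53 and -0.26. The wider T cell receptor list had 14 lower and 1 higher of 57 in WT and 13 lower and 3 higher in STAT3-deficient cells.

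A few genes that were lower with IL-6 in WT cells were not lower with IL-27. H2-DMa, which helps load peptides on MHC class II, was at 9.36, 9.40 and 9.39 in WT medium, at 8.504, 8.504 and 8.81 with IL-6 and at 10.07, 10.01 and 10.05 with IL-27. In STAT3-deficient cells it was at 9.94, 9.85 and 9.40 in medium and at 10.78, 10.54 and 10.38 with IL-27. With IL-27 the arrays lay above medium in both genotypes, by 0.66 ± 0.19 in WT (adjusted p = 0.0513, limma) and by 0.84 ± 0.19 in STAT3-deficient cells (adjusted p = 0.00985, limma). Clec2d, the ligand of an inhibitory NK cell receptor, was higher by 0.85 ± 0.23 (adjusted p = 0.0392, limma; 0.0584 with the deposited scaling) and Adamts6, a secreted metalloprotease, by 1.08 ± 0.22 (adjusted p = 0.00536, limma) in STAT3-deficient cells, with WT values of 0.24 ± 0.23 and 0.18 ± 0.22 that were not called. The call of Adamts6 was lost with the mean of its probe sets (0.46, adjusted p = 0.156, limma), with the arrays compared alone (adjusted p = 0.0701, limma) and without the STAT3-deficient arrays numbered 3 (adjusted p = 0.0678, limma). Sh2d3c, Idh2 and Pdk1 stood at 0.06, 0.03 and 0.02 in WT cells. Scd2, a fatty acid desaturase, was at -0.0019 ± 0.22 in WT and at -0.68 ± 0.22 in STAT3-deficient cells, the latter not called (adjusted p = 0.0927, limma).

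**Figure D4:**
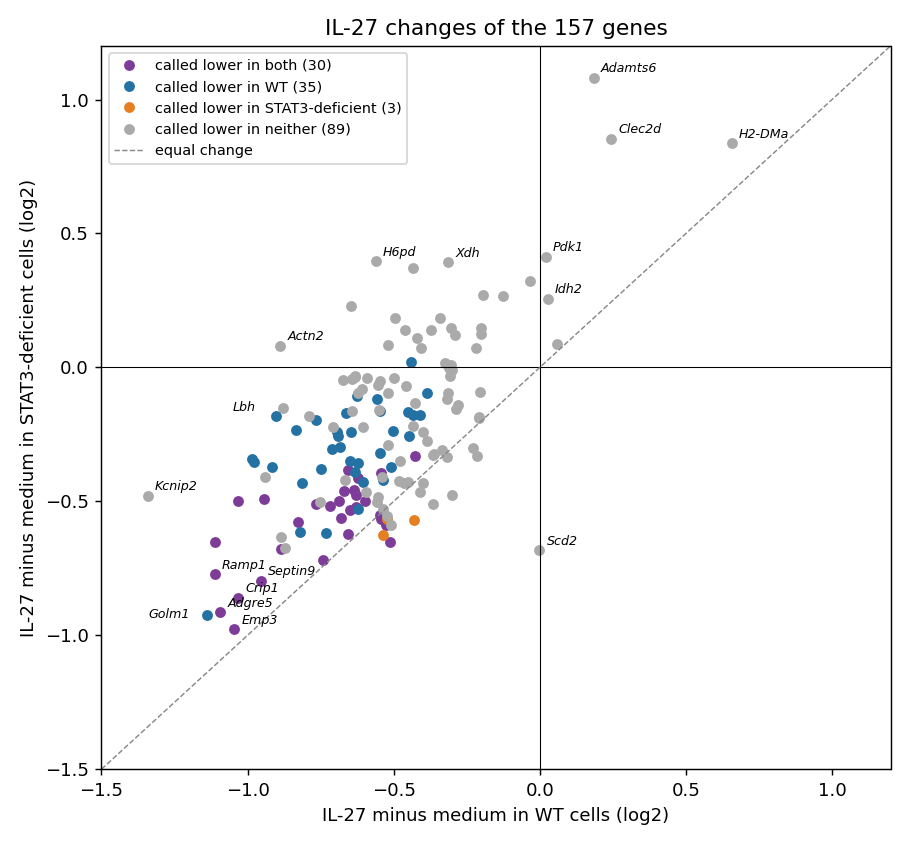
IL-27 minus medium (log2) in WT cells on the horizontal and in STAT3-deficient cells on the vertical axis for the 157 genes; colour shows in which genotype the gene was called lower, and the dashed line marks equal change. Of the 157 points 140 lie above the line, 128 are below 0 on both axes, and H2-DMa, Clec2d and Adamts6 lie at the upper right. Both axes use medium arrays that chose the genes, so nothing is read from the 140.

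The difference between genotypes in the IL-27 effect was not called for any of the 157 genes (limma interaction; 0.0167% of all genes, 2 in number, were called). At an unadjusted p under 0.05 there were 27 members, 26 with the less negative value in STAT3-deficient cells, and 876 of all genes. The median difference, STAT3-deficient minus WT, was 0.25, against 0.03 for all genes, and with median centring 0.57 against 0.25. So a gene called in one genotype and not in the other is not shown to differ between them. The interaction had a median SE of 0.23. Both groups of medium arrays in this difference were used to choose the genes, and that choice can raise its value by itself. Nothing is read from its direction or median in the 157.

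The level with IL-27 in STAT3-deficient against WT cells is the comparison whose 6 arrays had no part in the changes used to choose the genes. With IL-27, 25 of the 157 genes were higher and 10 lower in STAT3-deficient cells, 22.3% in all, where 16.2% of all genes were called (9.61% higher, 6.62% lower). The median difference was 0.15, against 0.03. Under median centring, which moved the median of all genes to -0.19, 6 were higher and 23 lower, so the direction of the majority rests on the scaling. Signal of B cell and myeloid markers lay higher in STAT3-deficient cells, and with its mean as a covariate 4 were called. The summed signals of these markers did not overlap between genotypes, so the covariate and genotype can hardly be told apart. Nothing is read from calls lost with it. Ighm and Fcgr3, which are among the 157, are also part of that mean. Of the 25 higher genes 11 were called higher in medium as well, and all 10 lower genes were lower in medium. In medium 16 were higher and 36 lower in all, where 13.7% and 12.9% of all genes were called; the rule used these medium arrays and asked for a high WT medium level, so nothing is read from these counts. Of the 36, 26 genes were not called with IL-27. Leaving out 1 IL-27 array gave 21 (WT replicate 1), 20 (WT replicate 2), 20 (STAT3-deficient replicate 1) or 19 calls (STAT3-deficient replicate 2).

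Lbh, a transcription cofactor, had the largest such difference. It was at 9.17, 9.33 and 10.12 in WT and at 11.54, 11.39 and 11.62 in STAT3-deficient cells with IL-27, 1.97 ± 0.17 higher without STAT3 (adjusted p = 2.2e-06, limma), and already at 10.46, 10.33 and 10.54 against 11.79, 11.54 and 11.76 in medium. Its groups lay clear of each other in both conditions. The call held with median centring (1.68) and was lost with the mean of its probe sets (0.21, adjusted p = 0.42, limma). With the marker covariate, which can hardly be told apart from genotype, the value was 2.21, and nothing is read from it. Ttc28 was at 10.60, 10.73 and 9.75 in WT and at 11.76, 11.45 and 11.07 in STAT3-deficient cells (1.07 ± 0.20, adjusted p = 0.00186, limma). Lpcat1, which remodels membrane phospholipids, was at 9.91, 9.89 and 10.03 against 11.13, 10.62 and 10.90 (0.94 ± 0.13, adjusted p = 0.000114, limma). Both kept the call with median centring and lost it with the marker covariate, where their values were 0.58 and 1.06.

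The lysosomal sulfatase Arsb was higher without STAT3 by 1.04 ± 0.27, the focal adhesion kinase relative Ptk2b by 0.89 ± 0.15, Sidt1 by 0.74 ± 0.13, Prex1 by 0.74 ± 0.14, and Lpxn, a focal adhesion protein, by 0.73 ± 0.13. St8sia1 was higher by 0.68 ± 0.17 and Adh1 by 0.68 ± 0.16. With median centring the calls of St8sia1 (0.33), Adh1 (0.45), Prex1 (0.45) and Lpxn (0.35) were lost, and that of Arsb was lost with the mean of its probe sets (0.54, adjusted p = 0.0864, limma). With the marker covariate none of these 7 was called, and the values of Prex1 and Lpxn turned to -0.0938 and -0.0786. The others stayed above 0, from 0.58 for Adh1 to 2.17 for Arsb. The largest differences the other way were those of Arhgap39 (-0.94 ± 0.29), Rgs2, which shortens G protein signals (-0.79 ± 0.23), and Stap1, a signalling adaptor (-0.76 ± 0.16). All 3 were also lower in STAT3-deficient medium samples, Arhgap39 by 1.67 ± 0.29. With the covariate Arhgap39 turned to 0.55 and Rgs2 to 0.99. Dok2, Fbxo31, Fam3c, Dbp and Sema4f had the smallest differences, between -0.02 and 0.00.

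**Figure D5:**
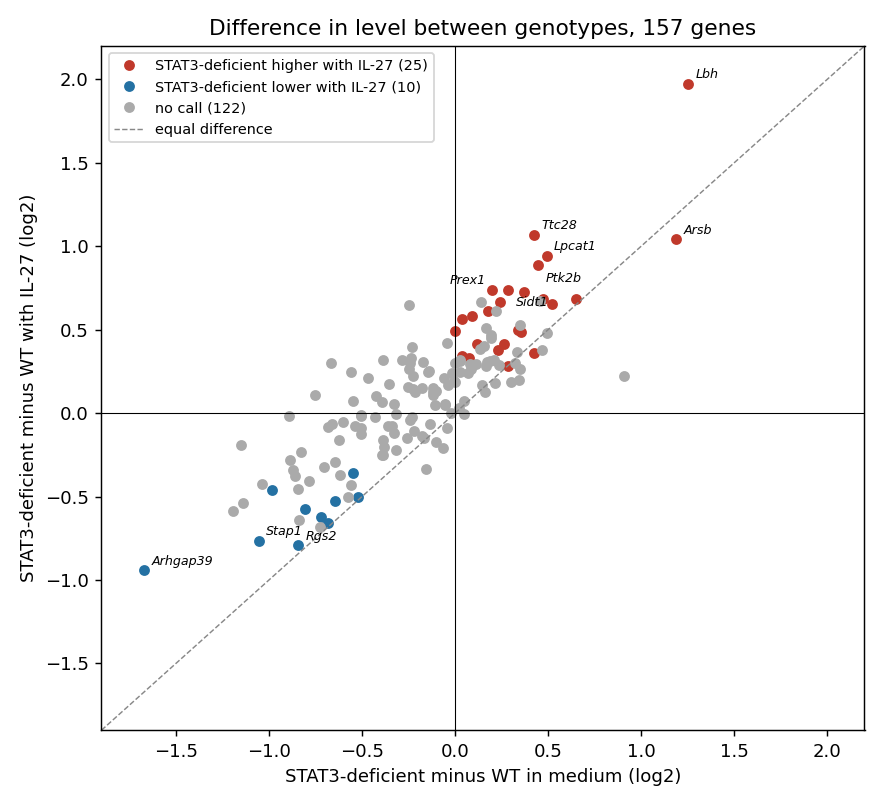
STAT3-deficient minus WT difference in level (log2) in medium, on the horizontal axis, and with IL-27, on the vertical axis, for the 157 genes; red and blue points were called higher (25) or lower (10) with IL-27. Lbh lies at 1.25 in medium and 1.97 with IL-27, and Arhgap39 at -1.67 and -0.94.

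For comparison, once the same kinds of names were left out, 45 genes met the WT conditions of the rule with a STAT3-deficient IL-6 change of -0.3 or less. In STAT3-deficient cells with IL-27, 17 of these 45 were called lower (37.8%), beside 33 of the 157 (21%). In WT cells with IL-27 the counts were 21 of 45 (46.7%) and 65 of 157 (41.4%), beside 2% of all genes. Both sets were chosen on the medium arrays that these comparisons use. The STAT3-deficient IL-6 change that split them shares its medium arrays with the STAT3-deficient IL-27 change. The split can therefore move 37.8% and 21% apart by itself, and the difference between the sets was not tested.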

How the data were processed

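The authors deposited linear intensity values, 1 signal per probe set, made with GCOS per the submitters' processing notes, whose version and algorithm no source used here states. The mean after trimming 2% at each end was 500.0 on every array. Probe sets were named through GEO's platform annotation: 34945 had 1 symbol, 932 several and 9160 none. For the model, log2(signal + 32) of all but 64 control probe sets was quantile normalised; genes above the array's median on at least 3 arrays were kept, 1 probe set each (highest mean), 11971 in all. All 157 chosen genes passed, since the rule asks for a high level. limma 3.58.1 (R 4.3.3) fitted 6 group means to 18 arrays (12 residual degrees of freedom, variance trend). Tests were two-sided, adjusted by Benjamini-Hochberg over all genes, and called under 0.05; the script was tested on simulated data. Changes are on the log2(signal + 32) scale, which understates weak genes. Nothing says whether replicates came from separate mice, so p-values measure the spread between these samples. The number of arrays limits the precision.

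Genes were chosen with earlier results of these data known, as were the gene lists. Named are the 10 lowest WT IL-6 changes; the 10 largest and 5 smallest genotype differences with IL-27 (largest by sign, and the lowest 3 added after their values were seen); the 6 lowest and highest IL-27 changes; list members; genes at the limits; and Stat3 and Socs3. Others were named after their values were seen. Alternatives covered scaling, added constant, filter, probe set, variance model, samples, blocks and a marker covariate. The numbers in the sample titles were checked for pairing. Deviations of same-numbered samples of a genotype correlated from -0.15 to 0.36 (median 0.14). Those of other numbers in a genotype correlated from -0.54 to 0.30 (median -0.06). This does not settle whether the numbers mark pairs. The main model did not treat them as pairs, and counts with a replicate block are given below.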

Additional observations from a re-analysis of the deposited data

Results flagged for a closer look

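In 3 of the 157 genes all WT IL-27 arrays lay below all WT medium arrays while all STAT3-deficient IL-27 arrays lay above all STAT3-deficient medium arrays. The share of all genes that do so was not counted, and the rule used both sets of medium arrays. Nothing is read from the number. H6pd, which makes NADPH in the endoplasmic reticulum, was at -0.56 in WT and 0.40 in STAT3-deficient cells. Nme4, a mitochondrial nucleoside diphosphate kinase, was at -0.34 and 0.19. Rassf8, a Ras association domain protein, was at -0.43 and 0.37. None of these changes was called, and the limma interaction gave adjusted p = 0.701 for H6pd, 0.749 for Nme4 and 0.663 for Rassf8. With the deposited scaling Nme4 stood at -0.02 in STAT3-deficient cells.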

How the results depend on the processing

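The number of genes under the rule ran from 117 to 233 over other limits, constants and scalings; quantile normalised values gave 126 (120 shared) and median centred ones 221 (156 shared). Leaving out 1 array gave 141 to 191. For IL-27 in WT cells, 65 calls became 41 to 76 without 1 array. For IL-27 in STAT3-deficient cells, 36 calls became 22 with the deposited scaling, 3 with median centring, 23 without the variance trend, 21 with the arrays compared alone, and 20 to 39 without 1 array. For STAT3-deficient against WT cells with IL-27, 35 calls became 22 with the arrays compared alone, 4 with the marker covariate, 23 with a minimum change of 0.5, and 19 to 40 without 1 array. The genotype difference in the IL-27 effect gave 0 calls under each alternative run. With the replicate block the counts were 77, 42, 47 and 0 for these 4 comparisons in turn, and with the replicate block within genotype 91 and 57 for the first 2 and 0 for the last. In single genes, the STAT3-deficient minus WT difference with IL-27 turned to -0.0247 for Rasgrp2 and -0.0622 for Arrb2 with median centring, to -0.10 for Rasgrp2 with the mean of all probe sets, and with the covariate to -0.0938 for Prex1, -0.0786 for Lpxn, 0.55 for Arhgap39, 0.99 for Rgs2 and -0.51 for Ighm. Ighm is itself part of the covariate, and the covariate and genotype can hardly be told apart. The cause was not tested. Leaving out the genes best known from B cells and antigen-presenting cells, or those past the rule's limits after normalisation, both chosen after seeing the data, gave 65 and 48, 35 and 25, 34 and 28, and 0 and 0 calls. Of the 157 genes, 12 lay below the array median on at least 1 IL-27 array, where weak signal limits what can be seen.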

Other observations

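Some of the 157 genes are next to each other among the protein-coding genes of RefSeq: Cldn10 and Dzip1, Ehd3 and Xdh, and the run 1110032F04Rik, Ift80 and Smc4. Ift80, a part of the intraflagellar transport machinery, and Smc4, a condensin subunit, were both called lower with IL-27 in both genotypes. Their STAT3-deficient calls were lost with the deposited scaling (adjusted p = 0.152 and 0.164, limma) and with median centring (-0.13 and -0.0759). The receptor genes of the pathway were outside the 157. Il6st, which encodes gp130, was at 10.48, 10.48 and 10.51 in WT medium and at 11.07, 11.49 and 11.52 with IL-6, and at 10.32, 10.20 and 10.45 against 10.39, 10.23 and 10.26 in STAT3-deficient cells. Il6ra stood at -0.53 in WT cells with IL-6 relative to medium (adjusted p = 0.0651, limma) and at 0.11 in STAT3-deficient cells. Il27ra was -0.59 with IL-27 in WT cells (adjusted p = 0.0158, limma).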
